A study of Mus musculus with 12 samples.

Results

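The piRNA pathway and germ granule genes described here are 33 mouse genes chosen by their symbols. Their rows were taken from a deposited table of assembled transcripts where the class code marked a match (=), containment (c), a shared splice junction (j) or another exon overlap (o) with a reference transcript, and the reads were summed per gene. Of the 33 genes, 32 were found, with 130 transcripts out of 71967 in the table and among 24516 genes with a symbol. The table did not list Spocd1 under its symbol, and the unnamed locus over it is described with the silencing factors. Total RNA was sequenced from whole testes of wild-type male C57BL/6 mice, an inbred strain, aged 3, 6, 12 or 18 months (groups 3M, 6M, 12M and 18M), with 3 mice in each. No treatment was named for any age, and all groups share the strain and the organ. The labels name the mice only by age and number (12M-3 is the third library at 12M). The study could not say whether animals of an age were littermates, so the p-values measure the spread between these 12 libraries.

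PIWI-interacting RNAs (piRNAs) are short RNAs of the germ line that guide PIWI proteins to transcripts of transposable elements and to other targets. In male mice, long precursors transcribed from piRNA clusters are unwound, cut, trimmed and methylated at the end, and much of this work takes place on mitochondria and in granules rich in RNA, the intermitochondrial cement of spermatocytes and the chromatoid body of round spermatids. Tudor domain proteins hold these granules together by binding methylated arginines of PIWI proteins. Loss of many of these genes blocks spermatogenesis and releases transposable elements. Since the RNA came from the whole testis, fewer cells of a type and less RNA per cell cannot be told apart in any value below.

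Read counts scaled to library size (CPM) served for comparisons between ages, and FPKM values, which are also scaled to transcript length, served for comparisons between genes. The libraries held 50924104 to 71803379 reads, with a median of 56236682. Strand was not recorded in these libraries, so the larger exon overlaps with other genes are given where a gene comes up. The labelled tissue was checked against 8 lists of markers. Germ cell and somatic markers were both present, with mean FPKM of 8272 for Prm2 of elongating spermatids, 410 for Hspa2 of spermatocytes and 841 for Insl3 of Leydig cells, and Nanos2 of spermatogonia was the single marker with a mean below 0.1. Library 12M-3 stood apart from the other 11. Among 13272 genes with a mean of 50 reads or more it held the lowest CPM of the 12 mice in 24.6%, and among 31 of the pathway genes in 14.

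Transcripts of the pathway were abundant in the adult testis at every age. The 32 genes held 0.548% of all reads, and their median FPKM was 13.7, against 8.15 for the 13383 genes with a mean FPKM of 1 or more. By mean FPKM over the 12 mice, 7 genes lay above 100, 16 between 10 and 100, 8 between 1 and 10, and 1 below 1, and 8 of them ranked within the top 10% of those 13383 genes. Mael led with 584 FPKM (557 to 622 across mice), followed by Gtsf1l (282), Gtsf1 (273), Ddx25 (222), Ddx4 (156), Piwil1 (113) and Tdrd6 (105). Tdrd7 (86.8), Rnf17 (54.7), Tdrd1 (37.6), Piwil2 (30.9), Tdrd9 (30.8) and Fkbp6 (25.9) came next in FPKM. Between 10 and 20 FPKM lay Mov10l1, Gpat2, Tdrd3, Henmt1, Tdrd12, Tdrd5, Mybl1, Asz1, Wdr77 and Prmt5. Tsn (8.75), Pld6 (8.47), Tdrkh (5.86), Pnldc1 (4.67), Exd1 (4.22), Papd7 (2.45), Morc1 (1.62) and Btbd18 (1.37) were lower in FPKM, and Piwil4 was close to 0 (0.0646). Many steps in this order were smaller than the spread between mice, since the ranges over the 12 mice overlapped in 20 of the 31 pairs of neighbours. Mael stood clear of Gtsf1l, and Ddx25 of Ddx4, whereas Gtsf1l and Gtsf1 overlapped. The mice of an age differed little, with a median SD of log2 CPM within an age of 0.0938 over the 32 genes, against 0.115 over the genes at 1 FPKM or more.

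**Figure D1:**
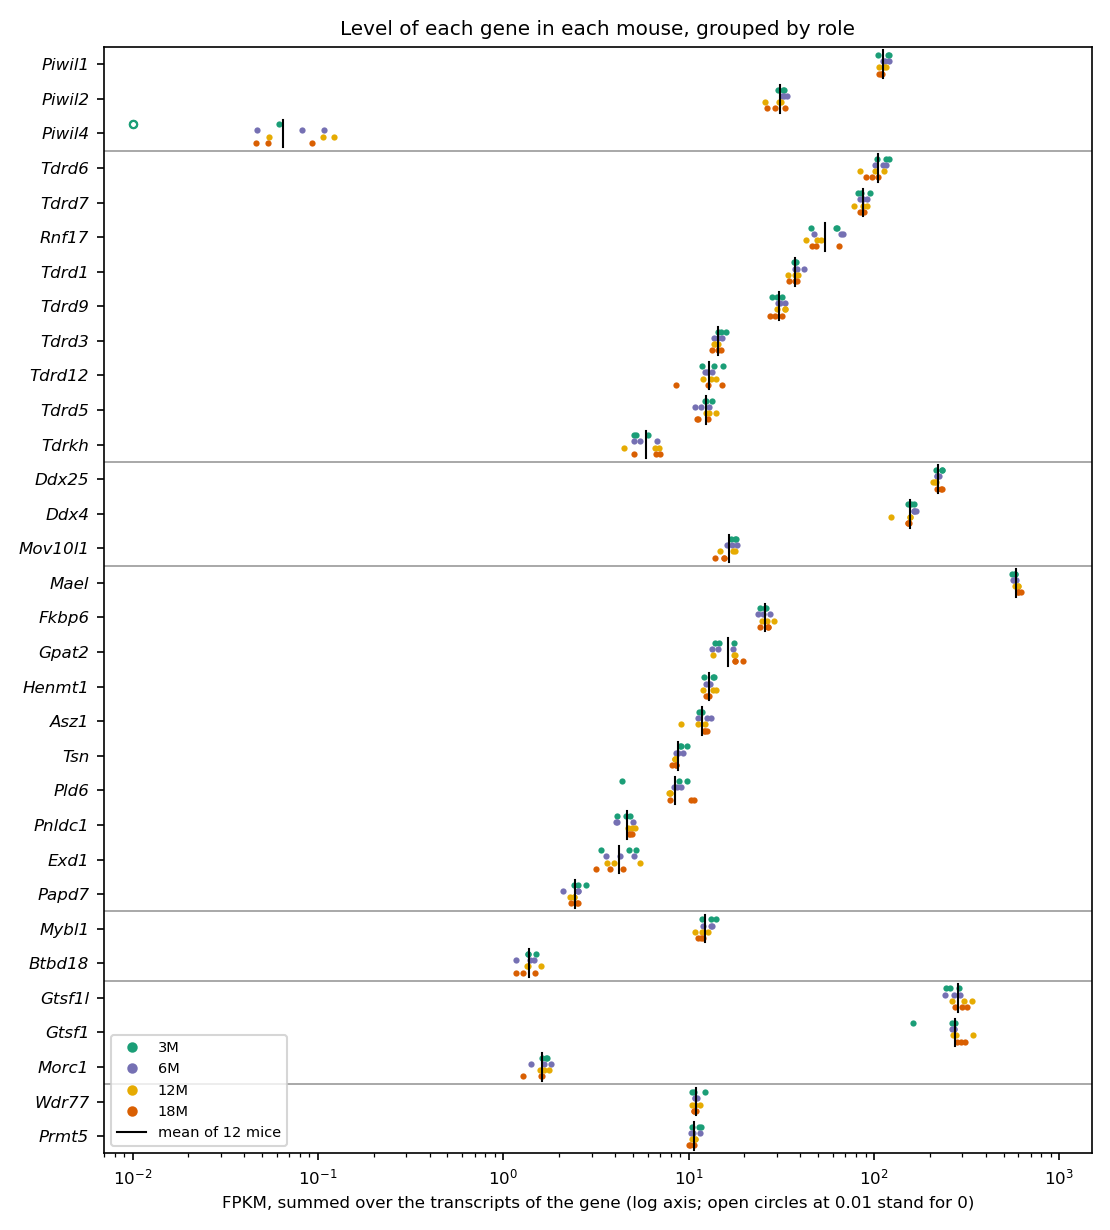
FPKM of each gene in each of the 12 mice (points, colored by age) on a log axis, with the mean of the 12 mice as a black bar and genes grouped by role. Levels span from 0.0646 FPKM for Piwil4, listed at 0 in 3M-1 and 3M-3 (open circles), to 584 for Mael, and the 4 ages lie close together within most genes.

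To ask whether the pathway changes with age, the slope of each gene on age in months was fitted across the 12 libraries with edgeR, and each age was compared with the next and 3M with 18M. None of the 32 genes passed the adjusted threshold of 0.05 in the slope, where 0.178% of all genes and loci tested did (45 of 25348), and the lowest adjusted p-value among them was 0.164. None of the 31 genes tested between 3M and 18M passed either (0.0647% of all tested; lowest adjusted p = 0.367), and none did between 3M and 6M (0.0729%), 6M and 12M (0.0404%) or 12M and 18M (0.0202%). DESeq2 also called none of them, where it called 559 of 25348 genes and loci in the slope and 296 of 24744 between 3M and 18M. Between consecutive ages it called 87 of 24706, 135 of 24727 and 53 of 24785. With limma on FPKM none passed either, where 45 or 49 genes and loci did in the slope and 14 or 17 between 3M and 18M. Between consecutive ages limma called 10 to 22. At an unadjusted p of 0.05 or less the slope counted 7 of 32 genes, or 3 higher and 4 lower with age, where 15.3% of all genes and loci did (7.45% higher, 7.81% lower). That count was 3 without 3M-2 (11.4% of all genes and loci), and 4 without either 18M-2 (12.2%) or 18M-3 (10.8%). Between 3M and 18M the same count was 7 of 31 against a background of 12.0%, with Gtsf1, Gtsf1l and Mael higher (background 5.68%) and Mov10l1, Tdrd5, Tdrd6 and Tsn lower (6.32%). This count was 0 without 18M-3 (7.28% of all genes and loci), 1 without 3M-2 (7.74%) or 18M-2 (7.68%) and 3 without 3M-3 (12.1%). It was 4 with all 12 libraries in 1 fit (11.003%) and 1 with class = transcripts alone (8.14%). Between consecutive ages it was 0 (3.95%), 0 (7.50%) and 1 (3.57%), the last being Pld6.

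The intervals of the slope limit the size of a steady change with age, and those of single steps were wider for some genes. Over the 15 months from 3M to 18M, the fitted log2 change had a 95% interval within 0.3 either way in 18 of the 32 genes, within 0.5 in 29 and within 1 in 31, the exception being Piwil4. The median fitted change over 15 months was -0.05 (log2) in these genes and 0.01 in all genes and loci tested. The fitted slope lay below 0 in 23 genes and above 0 in 9, where 51.2% of all genes and loci lay above 0. With reads of class = transcripts alone, 14 of the 32 lay above 0, though these transcripts held few of the reads of some genes. In simulated counts for the same 12 libraries, the slope test recovered 199 of 200 genes given a 2-fold change over the age range. The simulation gave every gene the same spread between libraries beyond counting error. It changed only genes with many reads, and steadily with age. The recovery is therefore not the power for these genes.

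**Figure D2:**
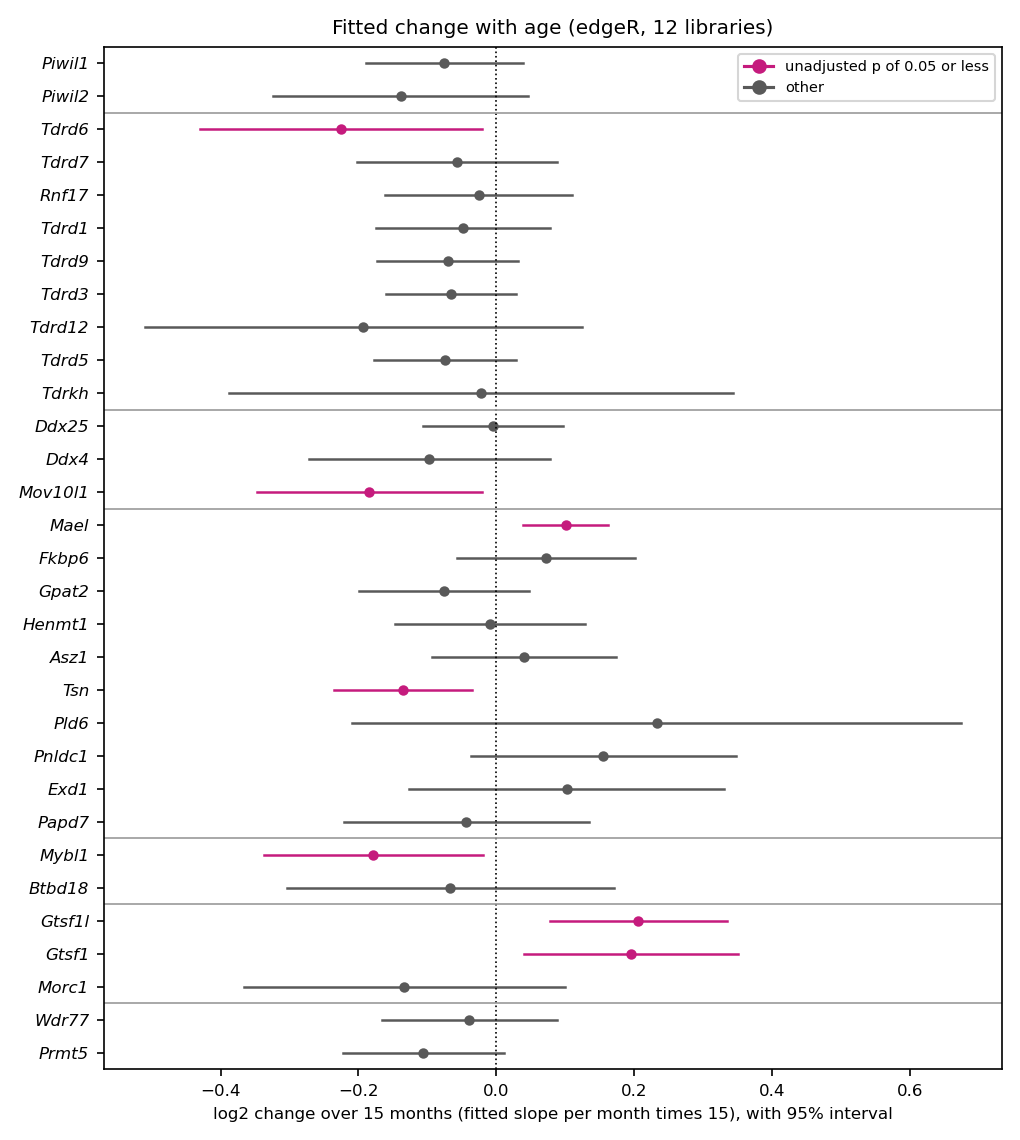
Fitted log2 change over 15 months (slope per month times 15, edgeR on 12 libraries) with its 95% interval for 31 genes grouped by role, with an unadjusted p of 0.05 or less in pink. Gtsf1l (0.21), Gtsf1 (0.20) and Mael (0.10) lie above 0 and Tdrd6, Mov10l1, Mybl1 and Tsn below 0. Piwil4 (0.95, interval -1.12 to 3.02) is left out for its width.

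Among the PIWI proteins, which carry the piRNAs, Piwil1 and Piwil2 were expressed at every age and Piwil4 was barely detected. Piwil1 encodes MIWI, the PIWI protein of pachytene spermatocytes and round spermatids, and its leading transcript lies on mm10 at chr5:128736246-128755474, plus strand, 22 exons. Its CPM was 503, 507 and 448 at 3M, 514, 487 and 463 at 6M, 484, 499 and 443 at 12M, and 467, 465 and 457 at 18M. The 4 ages overlapped, and the fitted change over 15 months was -0.08 log2 (95% interval -0.19 to 0.04). Piwil2, which encodes MILI and acts from fetal germ cells to spermatids, ranged from 132 CPM in 12M-3 to 179 in 6M-1, with a fitted change of -0.14 (-0.32 to 0.05). Piwil4 encodes MIWI2, the nuclear PIWI protein of fetal germ cells. It had 0 to 19 reads per library, with 0 in both 3M-1 and 3M-3, where a count of 0 still allows up to 3 reads. Its interval was too wide to give a direction.

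Tudor domain proteins, several of which are scaffolds of the germ granules, numbered 9. Of these, 1 (Tdrd6) had an unadjusted p of 0.05 or less for the slope, where 15.3% of all genes and loci did. Tdrd6, a component of the chromatoid body, had the highest FPKM of them, with its leading transcript at chr17:43615335-43630299, minus strand, 5 exons. Its CPM was 783, 902 and 874 at 3M, 848, 876 and 751 at 6M, 772, 866 and 623 at 12M, and 784, 732 and 688 at 18M. The mean was 853 ± 62.5 (SD, n = 3) at 3M and 735 ± 48.0 at 18M, and 18M-1 lay just above 3M-1, so the ages overlapped. The fitted change over 15 months was -0.23 log2 (-0.43 to -0.02, unadjusted p = 0.0330 and adjusted p = 0.289 by edgeR). The fitted changes of the other 8 lay between -0.19 and -0.02. All 9 fitted slopes were below 0, and 8 were on log2 FPKM or without 3M-2, 6M-2 or any 1 of the 18M libraries. With reads of matching reference transcripts (class =) alone, only 4 were. The genes that turned were Tdrd9, Rnf17, Tdrd3, Tdrkh and Tdrd5. Class = transcripts held 57.0%, 29.4%, 20.5%, 7.4% and 6.1% of their reads on average.

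Tdrd7 (286 to 362 CPM), Rnf17 (189 to 239), Tdrd1 (179 to 223) and Tdrd9 (167 to 193), all granule proteins needed to finish spermatogenesis, each had their lowest CPM in library 12M-3. In Tdrd5 (79.6 to 89.4 CPM) and Tdrd3 (41.9 to 47.0) all 3 mice at 18M lay below all 3 at 3M, where 9.84% of all genes and loci did. Exons of Tdrd5 overlap an unnamed locus on the opposite strand over 1318 nt, with a transcript at 0.0869 FPKM. Tdrd12, a helicase-like partner of the secondary pathway, stood at 55.0 CPM in 18M-3 and at 88.6 or more in each of the other 11 mice. Its fitted change over 15 months was -0.19 (-0.51 to 0.12), and 0.01 without 18M-3. Tdrkh, which tethers PIWI proteins to mitochondria for trimming, ranged from 24.9 CPM in 3M-3 to 41.3 in 6M-2. Its exons overlap those of Oaz3, a spermatid gene on the opposite strand with a transcript at 385 FPKM, over 253 nt, so its reads are uncertain.

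Of the 3 RNA helicases, Ddx25 (222 FPKM) and Ddx4 (156) were far more abundant per length than Mov10l1 (16.6). Ddx25, a helicase of the chromatoid body needed for spermatids to mature (chr9:35541848-35558470, minus strand, 12 exons), had 415, 388 and 418 CPM at 3M, 396, 400 and 381 at 6M, 386, 391 and 365 at 12M, and 414, 392 and 411 at 18M. Its fitted change was -0.00 log2 with an interval of -0.11 to 0.10, the smallest fitted change of the 32 genes. Ddx4, the mouse homolog of Vasa and a germ cell marker, lay between 472 and 526 CPM in 11 mice and at 378 in 12M-3. Mov10l1 binds piRNA precursors and feeds them into processing. Its CPM was 138, 152 and 148 at 3M, 152, 147 and 133 at 6M, 141, 151 and 119 at 12M, and 138, 128 and 120 at 18M. The fitted change of Mov10l1 over 15 months was -0.18 log2 (-0.35 to -0.02, unadjusted p = 0.0304 and adjusted p = 0.283), and 3M-1 and 18M-1 were at the same level. The direction turned with class = transcripts alone, to 0.10 (unadjusted p = 0.777), but these held only 1.1% of the reads of Mov10l1 on average. A stretch of 322 nt of its exons is shared with Ttll8 on the opposite strand, so part of its reads is uncertain.

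Among the 10 biogenesis and maturation factors, Mael was higher and Tsn lower with age at an unadjusted p of 0.05 or less, where 7.45% of all genes and loci were higher and 7.81% lower. Mael encodes Maelstrom, a granule protein of spermatocytes and spermatids, from chr1:166201385-166238744, minus strand, 12 exons. Its CPM was 954, 946 and 924 at 3M, 942, 930 and 944 at 6M, 990, 962 and 976 at 12M, and 982, 995 and 1031 at 18M. All 3 mice at 18M lay above all 3 at 3M, where 9.45% of all genes and loci did. The change was small, with means of 941 ± 15.3 (SD, n = 3) at 3M and 1003 ± 25.5 at 18M and a fitted log2 change over 15 months of 0.10 (0.04 to 0.16). Its unadjusted p of 0.00365 was the lowest of the 32 genes, and its adjusted p was 0.164 by edgeR and 0.0655 by DESeq2. Tsn encodes translin, an RNA-binding protein and subunit of an RNA nuclease (chr1:118298518-118311132, minus strand, 6 exons). It stood at 29.1, 31.8 and 29.6 CPM at 3M, 28.5, 27.8 and 29.5 at 6M, 27.7, 28.0 and 27.1 at 12M, and 27.5, 26.6 and 27.7 at 18M. The 3 mice at 18M lay below the 3 at 3M, as in 9.84% of all genes and loci. The fitted change of Tsn was -0.14 log2 (-0.24 to -0.04, adjusted p = 0.216 by edgeR).

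Of the factors that make piRNA ends, Henmt1, the methyltransferase of piRNAs, ranged from 26.0 to 30.9 CPM with a fitted log2 change of -0.01 (-0.15 to 0.13). Pnldc1, the trimming exonuclease, ranged from 7.31 to 9.42 CPM with a fitted change of 0.16 (-0.04 to 0.35). Asz1 (21.7 to 26.3 CPM), Gpat2 (54.9 to 65.6), Fkbp6 (34.6 to 41.9) and Exd1 (20.5 to 29.0), proteins of the mitochondrial surface or partners of the tudor proteins, had fitted changes between -0.08 and 0.10. Papd7, a poly(A) polymerase also named Tent4a, ranged from 9.07 to 11.9 CPM. Pld6, the nuclease on mitochondria that cuts the precursors, stood at 7.37 CPM in 3M-3 and between 12.6 and 17.6 in the others. Its fitted change was 0.23 (-0.21 to 0.67), and 0.05 without 3M-3. Pld6 shares 1333 nt of exon with Flcn on the same strand, and its leading transcript is a noncoding RefSeq model of 1524 nt, so its reads cannot be assigned with certainty.

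**Figure D3:**
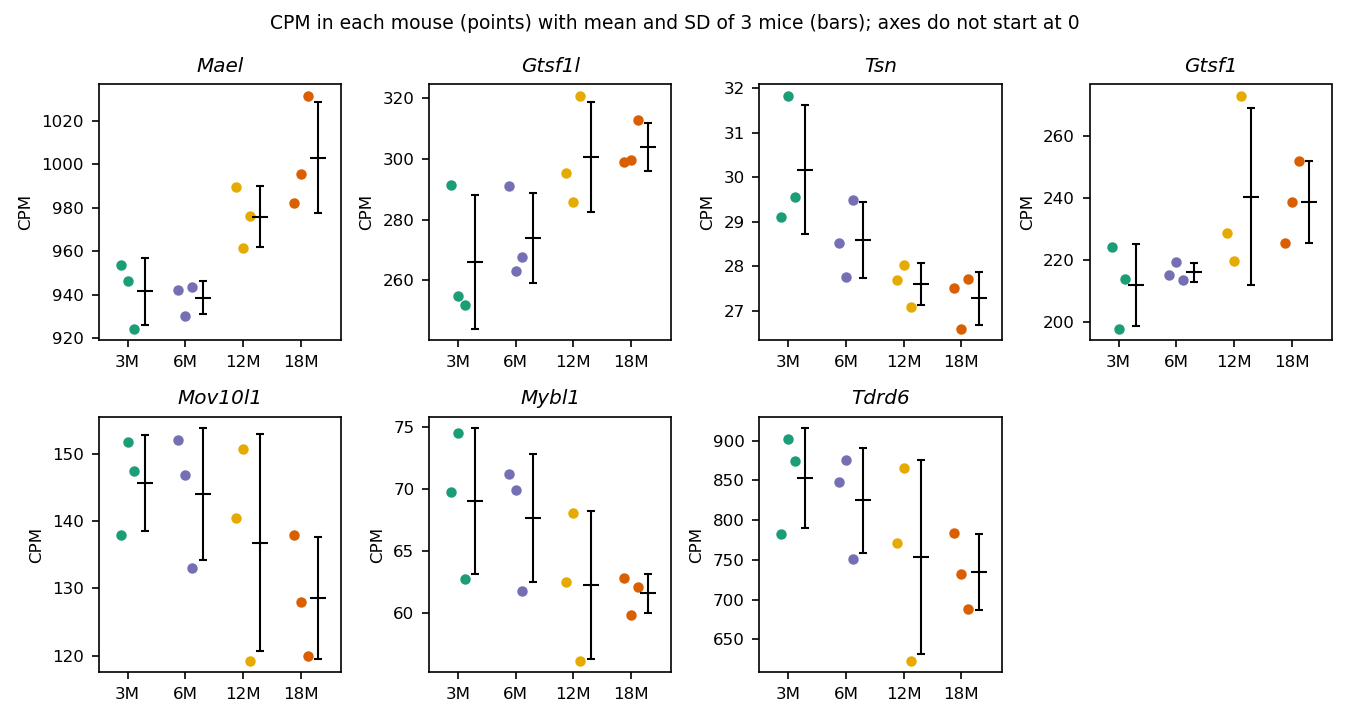
CPM of the 7 genes with an unadjusted p of 0.05 or less for the slope, in each mouse (points) with the mean and SD of 3 mice at each age (bars, the vertical axes do not start at 0). All mice at 18M lie above those at 3M in Mael (982 to 1031 against 924 to 954 CPM), where 9.45% of all genes and loci did. Library 12M-3 is the highest of 12 in Gtsf1 and Gtsf1l and the lowest in Mov10l1, Mybl1 and Tdrd6.

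Of the 2 regulators, Mybl1 stood at 12.3 FPKM, above the median of the genes at 1 FPKM or more, and Btbd18 at 1.37. Mybl1 encodes A-MYB, the factor that switches on the pachytene piRNA clusters and many genes of the pathway in spermatocytes (chr1:9667411-9700209, minus strand, 16 exons). Its CPM was 69.7, 74.5 and 62.7 at 3M, 71.2, 69.9 and 61.7 at 6M, 62.4, 68.1 and 56.1 at 12M, and 62.8, 59.8 and 62.1 at 18M. The mean was 69.0 ± 5.89 (SD, n = 3) at 3M and 61.6 ± 1.56 at 18M, where 18M-1 and 3M-3 were at the same level, and the fitted change was -0.18 log2 (-0.34 to -0.02, unadjusted p = 0.0309 and adjusted p = 0.284). Btbd18, which helps polymerase elongate through piRNA clusters, ranged from 4.29 to 5.89 CPM with a fitted change of -0.07 (-0.30 to 0.17).

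Since A-MYB acts at the start sites of genes of this pathway, promoters of the members were searched for motifs bound by the MYB family. RefSeq promoters on GRCm38.p6 (the assembly of mm10), from 250 bases before to 50 after the start, were at hand for 26 of the 32 genes, 34 promoters in all. The short motif AACNG, on either strand, was in 29 of the 34 (85.3%) and in 80.3% of all 32851 promoters. The longer motif AACTGNC, which always holds an AACNG, was in 5 of the 34 (14.7%) and in 12.8% of all promoters. These 5 belong to 4 of the 26 genes, since a pair of overlapping promoters of Fkbp6 holds the same match. For comparison, CCAAT, the motif of NF-Y, was in 41.2% against 37.4% and GATAA in 14.7% against 25.4%. A match is a stretch of letters and not a binding site, and no difference was tested. The stretches of 100 bases around AACTGNC (or GNCAGTT on the opposite strand) in 4 genes are shown to place the motif beside the start, read along the strand of the gene, with the motif in capitals. In Tdrd7 the pair of matches lay in the promoter of a RefSeq transcript that averaged 2.5 reads, against 11025 for the leading transcript. The other promoters of Tdrd7, including that at the start of the leading transcript, held no match to AACTGNC.
Piwil1, chr5:128736124-128736223 (+), motif from -75: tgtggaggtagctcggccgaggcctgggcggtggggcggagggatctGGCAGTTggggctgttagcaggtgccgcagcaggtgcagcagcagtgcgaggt
Fkbp6, chr5:135349956-135350055 (-), motif from -95: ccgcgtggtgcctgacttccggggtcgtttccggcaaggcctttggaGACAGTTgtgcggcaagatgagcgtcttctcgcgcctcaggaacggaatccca
Tdrkh, chr3:94413029-94413128 (+), motif from -168: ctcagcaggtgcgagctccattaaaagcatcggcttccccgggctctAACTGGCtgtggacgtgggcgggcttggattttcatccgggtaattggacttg
Tdrd7, chr4:45965111-45965210 (+), motif from -177: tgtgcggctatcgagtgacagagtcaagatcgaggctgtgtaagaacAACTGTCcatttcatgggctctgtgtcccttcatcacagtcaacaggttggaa
Tdrd7, chr4:45965205-45965304 (+), motif from -83: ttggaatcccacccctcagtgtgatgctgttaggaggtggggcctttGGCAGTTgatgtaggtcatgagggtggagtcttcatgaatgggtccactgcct
Positions count from the RefSeq start of the promoter in which the motif was found. In Piwil1 that start is also where the leading assembled transcript begins. The start used for Fkbp6 lies 131 nt inside the leading transcript, so that its motif falls 36 nt after the start of that transcript, and those for Tdrkh and Tdrd7 lie 2785 nt inside and 6962 nt before it.

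Of the PIWI partners and silencing factors, both Gtsf1 genes had all 3 mice at 18M above all 3 at 3M, where 9.45% of all genes and loci did. Gtsf1 encodes a zinc finger protein that PIWI proteins need for slicing and silencing, and Gtsf1l is its testis paralog. They lie at chr15:103402459-103430427, minus strand, 9 exons, and at chr2:163087031-163089601, minus strand, 2 exons. The CPM of Gtsf1 was 224, 198 and 214 at 3M, 215, 219 and 214 at 6M, 229, 220 and 273 at 12M, and 226, 239 and 252 at 18M. The lowest mouse at 18M lay just above the highest at 3M. The means were 212 ± 13.2 (SD, n = 3) at 3M and 239 ± 13.1 at 18M, with a fitted change over 15 months of 0.20 log2 (0.04 to 0.35, unadjusted p = 0.0178 and adjusted p = 0.242). Gtsf1l stood at 291, 255 and 252 CPM at 3M, 291, 263 and 268 at 6M, 295, 286 and 321 at 12M, and 299, 300 and 313 at 18M. Its fitted change was 0.21 log2 (0.08 to 0.33, unadjusted p = 0.00432 and adjusted p = 0.171), and 1 of its 3M mice (291) stood near the 18M mice. Library 12M-3 held the highest CPM of both genes, and without it the fitted slopes stayed above 0. In FPKM, Gtsf1 was at 163 in 3M-2 and at 263 and 274 in the other 3M mice, a gap that its CPM did not show.

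Morc1, a nuclear silencing factor of fetal germ cells, was low at 4.18 to 5.93 CPM, with a fitted change of -0.13 (-0.37 to 0.10). The unnamed locus over Spocd1, a nuclear factor of piRNA-directed DNA methylation, lies at chr4:129928636-129957342 on the plus strand and was given the class of intergenic transcripts. Its 3 transcripts each held 12 introns of the GENCODE model of Spocd1. The locus ranged from 9.01 to 11.8 CPM, or 2.46 FPKM on average, with a fitted change of 0.03 (-0.15 to 0.22). The enzyme pair that methylates arginines of PIWI proteins, on which tudor domains dock, was also expressed. Wdr77, the cofactor (chr3:105959498-105969760, plus strand, 10 exons), stood at 39.4, 40.6 and 46.8 CPM at 3M, 41.3, 41.3 and 41.4 at 6M, 41.2, 44.4 and 38.8 at 12M, and 40.4, 41.5 and 40.6 at 18M. The ages overlapped, with a fitted change of -0.04 (-0.17 to 0.09), and its exons overlap those of Ovgp1 (201 nt) and Atp5f1 (144 nt), so part of its reads is uncertain. Prmt5, the methyltransferase, had means of 31.6 ± 1.66 CPM (SD, n = 3) at 3M and 29.1 ± 0.729 at 18M, with a fitted change of -0.11 (-0.22 to 0.01).

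Order across ages was also described without a test. The mean FPKM was higher at each successive age in 2 of 31 genes, Mael and Tdrkh, where 6.34% of 13688 genes were, and lower at each in 6, namely Mov10l1, Mybl1, Prmt5, Tdrd6, Tsn and Wdr77, where 8.53% were. The mean FPKM of Mael was 570, 571, 590 and 607 from 3M to 18M, and that of Tdrd6 was 113, 110, 99.7 and 97.5. For Tdrkh the direction differed between units, with means of 5.43 FPKM at 3M and 6.25 at 18M but 31.4 and 30.8 CPM. In CPM, all 18M mice lay above all 3M mice in 4 of 32 genes (Asz1, Gtsf1, Gtsf1l and Mael), where 9.45% of genes and loci did. All lay below in 3 (Tdrd3, Tdrd5 and Tsn), where 9.84% did, and in 25 genes both ages overlapped.

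Summed over the 32 genes, CPM lay between 5491 and 5581 in the 3M mice and between 5359 and 5506 in the 18M mice, and the lowest sum of all, 5067, was that of 12M-3 (5349 to 5684 in the other 11). In that library the 10 spermatocyte markers, of which Piwil1 is also 1 of the pathway genes, summed to 2404 CPM, the lowest of 12 (2440 to 2639 in the others), and the 10 elongating spermatid markers to 27475, the highest (20012 to 25120). The count of genes at an unadjusted p of 0.05 or less for the slope was 7 without 12M-3 as well. Markers of other cells also moved with age. For the slope, 8 of 10 round spermatid markers were higher and 8 of 10 Leydig cell markers lower at an unadjusted p of 0.05 or less, and Cyp11a1 and Cyp17a1 of Leydig cells fell at an adjusted p of 0.05 or less. The round spermatid markers summed to 1971 to 2106 CPM at 3M and 2223 to 2302 at 18M, and those of Leydig cells to 914 to 1092 and 582 to 799. The median fitted change over 15 months was 0.21 log2 in the round spermatid, 0.17 in the elongating spermatid and -0.01 in the spermatocyte markers. It was -0.22 in the spermatogonia, -0.06 in the Sertoli cell and -0.87 in the Leydig cell markers. In the peritubular and vascular markers it was -0.19, and in those of macrophages and blood cells -0.30. The part of these shifts in the values of Gtsf1, Gtsf1l, Mael or the genes with a negative slope was not tested.

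**Figure D4:**
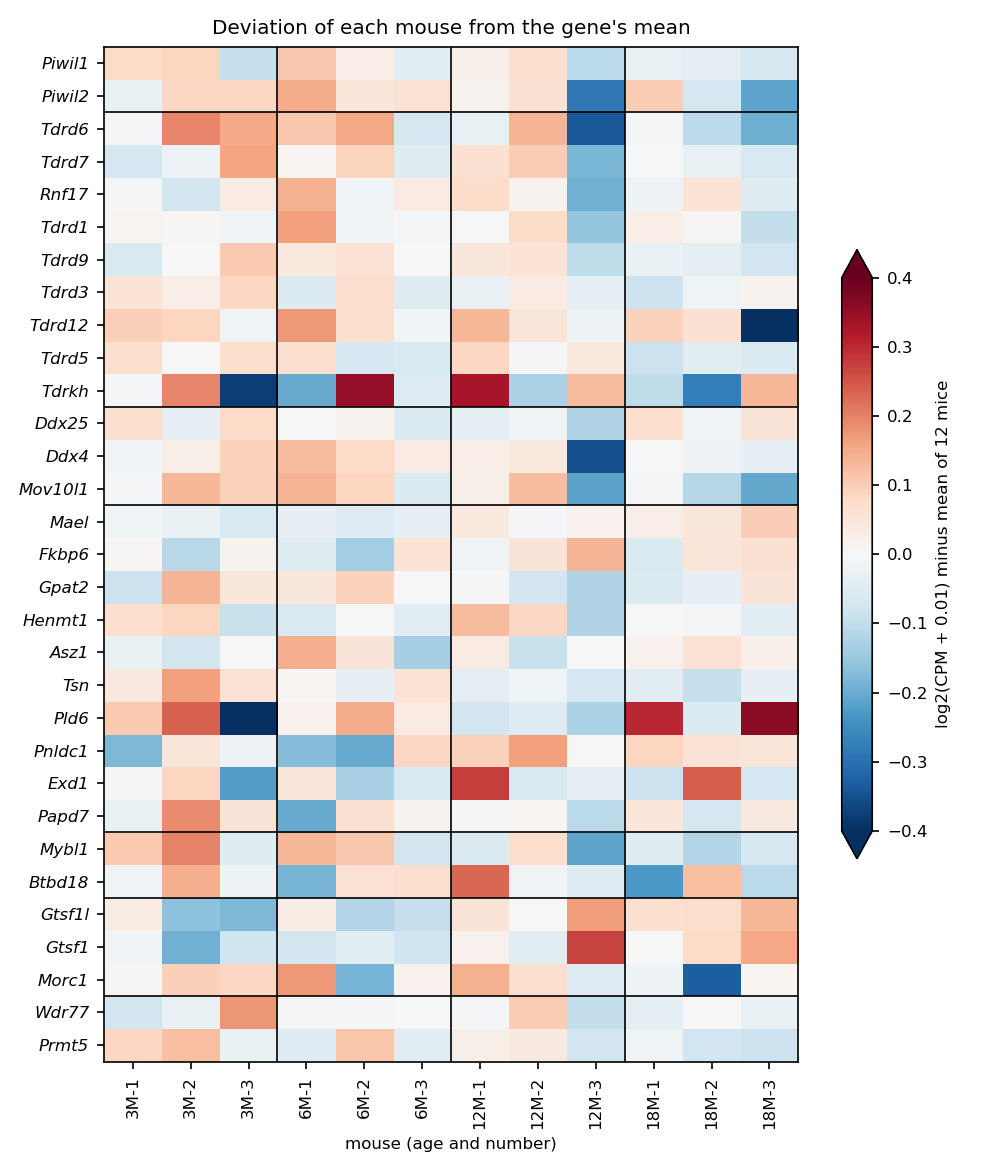
Log2(CPM + 0.01) of each gene in each mouse minus the mean of the 12 mice, with 31 genes grouped by role in rows and mice by age in columns (the color scale ends at 0.4 either way). Library 12M-3 is lowest in 14 of 31 genes and highest in Gtsf1 and Gtsf1l, and Tdrd12 in 18M-3 and Pld6 in 3M-3 fall below the scale.

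A further 24 genes of the pathway and its granules that are no members, such as the tudor domain gene Stk31, the decapping factor Dcp1a and the microRNA genes Dicer1 and Ago2, were read in the same tests. The table did not hold Dnmt3c, 22 were tested, and edgeR called 0 in any comparison of ages. In the slope, 4 of the 22 had an unadjusted p of 0.05 or less, all of them lower with age (background 7.81%). The smallest were those of Ddx6, an RNA helicase of processing bodies, Topaz1, a germ cell factor, and Dicer1, the endonuclease of microRNAs. Ddx6 averaged 81.4 ± 6.72 CPM (SD, n = 3) at 3M and 71.0 ± 5.74 at 18M, Topaz1 31.7 ± 1.53 and 28.2 ± 0.94, and Dicer1 22.7 ± 1.89 and 19.3 ± 1.63. Their adjusted p-values by edgeR were 0.225, 0.229 and 0.235, and all 3 were lowest in library 12M-3.

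The reads of a gene are divided between its transcripts by the assembler, and in some genes this division differed widely between mice. Of the 32 genes, 7 had 1 transcript and 25 had several. The leading transcript was an unannotated form in 7, although 27 of the 32 leading transcripts had every intron in the GENCODE annotation. Among genes with several, the leading transcript held a median of 66.5% of the reads, from 26.5% in Tdrd6 to 95.1% in Piwil1. In Mov10l1 the leading transcript held 83.5% to 89.4% in each mouse. It is 9525 nt long, and its start on chromosome 15 at 88978551 lies 4443 nt before that of the RefSeq transcript, which averaged 87.1 reads.

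In Gtsf1, Asz1 and Tdrd12 the range was set by 1 library each. The RefSeq transcript of Gtsf1 held 88.1% to 91.3% of the reads in 11 mice and 14.0% in 3M-2. That of Asz1 held 75.3% to 85.0% in 11 mice and 25.0% in 12M-3, where an assembled form held 71.1%. The leading form of Tdrd12 held 67.5% to 77.2% in 11 mice and 1.8% in 18M-3, the library in which the gene had its lowest CPM. Btbd18 was assigned to its RefSeq transcript at 100% in 6M-1 and 6M-2, at 47.2% in 3M-2 and at 0% to 2.4% in the other 9 mice, while the CPM of the gene moved only from 4.29 to 5.89. In Gpat2 and Tdrkh the leading share was spread over many libraries. That of Gpat2 averaged 65.6% ± 6.64 (SD, n = 3) in the 18M mice, with 58.7% or more in each. In the 3M mice it averaged 27.2% ± 34.3, with 66.9% in 3M-1, so these ages overlapped, and it ran from 6.8% to 43.8% in the 6M mice and from 15.5% to 70.1% in the 12M mice. That of Tdrkh ranged from 10.7% to 84.4%. Neither was tested for age. In Gtsf1l the RefSeq transcript ranged from 36.4% to 100% of the reads, and in several mice the shares were near simple fractions (25.0% for each of a pair of minor forms in 12M-2). Shares were steadier in Piwil2 (68.3% to 88.2%), Ddx4 (56.3% to 65.9%), Mybl1 (69.7% to 86.0%), Prmt5 (84.5% to 97.3%) and Piwil1 (91.9% to 96.9%).

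**Figure D5:**
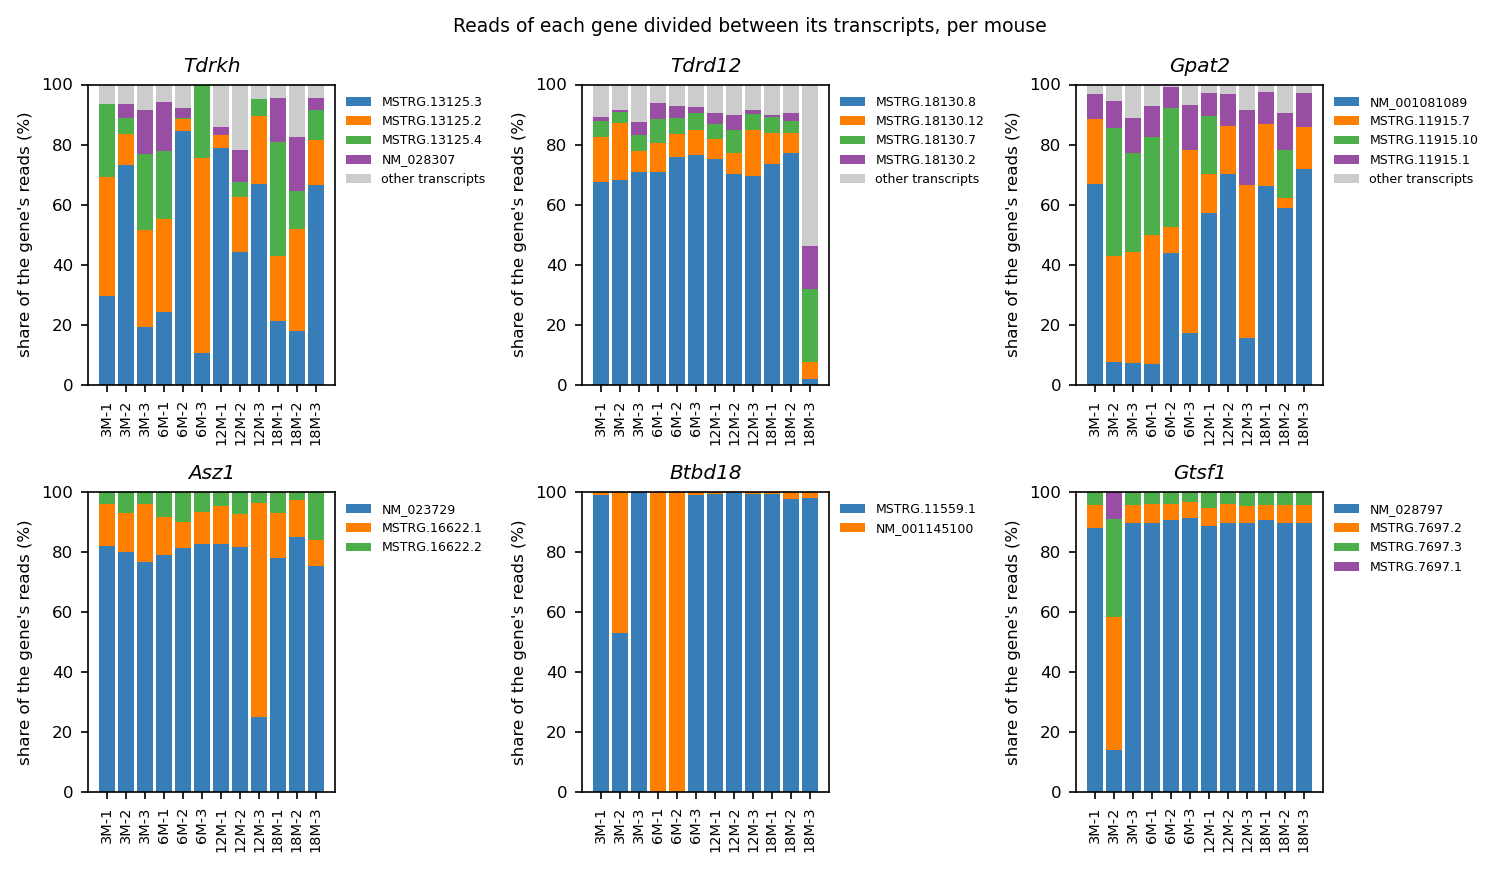
Share of the reads of 6 genes held by each of up to 4 transcripts (colors, with the rest in grey) in each of the 12 mice, in percent. The split changes in single libraries, as in 3M-2 for Gtsf1, 12M-3 for Asz1, 18M-3 for Tdrd12 and 6M-1 and 6M-2 for Btbd18, and follows no order of age in Tdrkh.

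At the level of single transcripts, edgeR called 0 of the 125 transcripts tested in the slope (0.0103% of all transcripts tested) and 0 of 118 between 3M and 18M (0.108%). At an unadjusted p of 0.05 or less it counted 7 (7.15%) and 5 (5.40%). DESeq2 called 1 in the slope (1.28%), the transcript of Mael, and 3 between 3M and 18M (3.16%). These were the longer RefSeq form of Mybl1, at 56.7 ± 2.37 CPM (SD, n = 3) at 3M and 48.1 ± 2.24 at 18M, and a pair of minor assembled forms of Mov10l1, at 5.68 ± 0.79 and 4.11 ± 0.34 CPM at 3M and 3.78 ± 0.43 and 2.77 ± 0.39 at 18M. At 6M and 12M the first of this pair averaged 4.96 ± 1.81 and 4.59 ± 1.01 CPM. The second averaged 2.45 ± 0.78 and 4.61 ± 2.35, so its means followed no order of age. By edgeR the adjusted p-value of each of the 3 transcripts called between 3M and 18M was 0.900 and that of the Mael transcript was 0.430. The calls for these transcripts differed between the tools, and in simulated counts edgeR recovered 16 of 200 transcripts given a 2-fold change in the slope and 1 of 200 between 3M and 18M. As in the simulation of genes, every transcript was given the same spread, so this is not the power for the members' transcripts.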

How the data were processed

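Ribosomal RNA was removed from total testis RNA (Ribo-Zero), libraries were made with the TruSeq kit and read in pairs, and the authors aligned them to mm10 with HISAT2 and assembled and quantified transcripts with StringTie 1.3.3b. The deposited read counts per transcript are coverage times length over read length, so these estimated counts, as deposited by the authors, were rounded up to whole numbers, and the deposited FPKM values are those of the assembler. The deposited assemblies of each sample gave coordinates and exons, and their FPKM equalled that of the table.

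Counts were summed per gene and tested with the edgeR 4.0.16 quasi-likelihood test (R 4.3.3, TMM factors 0.983 to 1.02, Benjamini-Hochberg adjustment over all genes and loci, threshold 0.05), in a slope on age over the 12 libraries and in pairwise comparisons of ages. DESeq2 1.42.0 and limma 3.58.1 on log2(FPKM + 0.1) or log2(FPKM + 1) served as alternatives, beside other filters, other classes of transcripts, a block on replicate number and leaving out each library. The tests were checked on simulated counts. CPM is scaled to TMM-adjusted library size. Introns and starts were compared with GENCODE vM21. Libraries of 50924104 to 71803379 reads leave counting error small for all members but Piwil4, and intervals cover the spread between libraries.

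The members and gene lists were chosen with earlier results of these data known. Values are given per mouse for members at an unadjusted p of 0.05 or less in the slope and for the member with the highest FPKM in each role. Transcripts are named where called and, in each role, for the members with the widest spread of isoform shares.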

Additional observations from a re-analysis of the deposited data

Results flagged for a closer look

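Reads lay outside the transcripts summed for the members at 3 places. The unnamed locus over Spocd1 held 567 reads per library on average (457 to 746). Transcripts of the opposite strand at Ddx4 held 346 reads on average (54 to 500), and since the kit does not keep the strand they cannot be told apart from reads of Ddx4 by strand alone. A transcript just past the end of Mov10l1 held 439 reads on average (401 to 494). Each was set apart because it is signal in data that the comparisons do not use, and all exceed the 3 reads that a count of 0 allows.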

How the results depend on the processing

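No member was called at an adjusted p of 0.05 or less in any of the 5 comparisons of ages by gene under any alternative run. At an unadjusted p of 0.05 or less the members counted 7 in the slope, 7 between 3M and 18M and 1 between 12M and 18M. The other pathway genes counted 4 and 3, and 2 between 6M and 12M. Of all genes and loci, 15.3%, 12.0%, 3.57% and, between 6M and 12M, 7.50% passed. The members' transcripts counted 7 (7.15% of all transcripts) and 5 (5.40%). DESeq2 called 1 and 3 of these transcripts (1.28% and 3.16% of all transcripts) where edgeR called 0. Leaving out 1 library, the members in the slope at an unadjusted p of 0.05 or less numbered 3 (without 3M-2) to 8. Of all genes and loci, 10.8% to 16.6% passed. Members between 3M and 18M numbered 0 to 6, beside 7.28% to 12.8%. Those ordered by mean FPKM numbered 3 to 10, and 8 of 31 with all libraries, where 14.9% of genes were ordered. Those without overlap between 3M and 18M numbered 9 to 14 where an age held fewer mice by construction. With all libraries they were 7 of 32, where 19.3% of genes and loci did not overlap. Over all genes the slope called 13 without 18M-3 and 115 without 18M-1. With class = transcripts alone the fitted change of Mov10l1 over 15 months was 0.10 and those of Gtsf1 and Gtsf1l 0.52 and 0.11. These transcripts held 1.1% of the reads of Mov10l1 on average. In Gtsf1 they held 14.0% of the reads in 3M-2 and 88.1% to 91.3% in the other mice. The cause of the differences from the main run was not tested. Deviations of libraries with the same number correlated at -0.0345 to 0.0762, and those with other numbers at -0.0623 to 0.0692. For 0 of 12 libraries was the same-numbered one the closest at every other age. Correlations this near 0 do not settle whether the numbers pair mice. A replicate block called 0 members, 23 genes in the slope and 0 between 3M and 18M. At an unadjusted p of 0.05 or less it counted 8 and 1 members, beside 15.4% and 7.95% of all genes and loci.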
